A study of Mus musculus with 18 samples.

Results

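Renal glucose production and glucose handling was followed through 8 genes: the gluconeogenic enzymes Pcx, Pck1, Fbp1 and G6pc, the glucose 6-phosphate transporter Slc37a4, and the glucose transporters Slc2a2 (GLUT2), Slc5a2 (SGLT2) and Slc2a1 (GLUT1). They were named by symbol for their role in the pathway, with earlier results of these data known, and all 8 were present among the 15035 genes measured in each of 18 kidney cortex libraries. There were 6 groups of 3 mice. The healthy group was MRL/MpJ wild type. The 15 diseased mice carried the MRL/lpr genotype, whose Fas mutation leads to autoimmunity with nephritis, and received vehicle, MMF (mycophenolate mofetil, which lowers purine synthesis in lymphocytes), FK506 (tacrolimus, a calcineurin inhibitor), prednisone (a glucocorticoid) or the treatment labelled multi-target. Healthy mice were on vehicle too. The labels state neither age, sex, dose nor duration, nor the make-up of the multi-target treatment, and disease is compared between strains, so strain and disease cannot be told apart.

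The kidney cortex is, with the liver, a site where glucose is made from lactate, glutamine and glycerol, and this takes place in the proximal tubule. Pyruvate carboxylase (Pcx) makes oxaloacetate, the cytosolic phosphoenolpyruvate carboxykinase (Pck1) turns it into phosphoenolpyruvate, fructose bisphosphatase (Fbp1) and glucose 6-phosphatase (G6pc) carry out the later irreversible steps, and Slc37a4 brings glucose 6-phosphate into the endoplasmic reticulum for G6pc. The same cells take filtered glucose back from the urine through the sodium-coupled transporter Slc5a2 on their luminal side and pass it to the blood through Slc2a2 on the opposite side. Slc2a1 is a widespread uptake transporter, found in the kidney mainly on the basal side of later proximal and of distal segments.

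Values are log2 expression values as deposited, on which 1 unit is a 2-fold difference. Libraries held 28939845 to 41066953 recovered reads, and each member had between 1459 and 249727 reads per library, so mouse-to-mouse spread and not counting limits the precision. Proximal tubule markers stood at a list mean of 15.15 to 15.28 in healthy and 13.47 to 14.64 in vehicle mice, the lowest being vehicle mouse 36. Of liver markers, the urea cycle enzyme Cps1 lay between 6.46 and 7.26 in all libraries. Albumin (Alb) was higher in healthy mice (9.67 to 10.04) than in MRL/lpr mice (6.94 to 8.87). Of 7 liver markers measured, 1 was called lower in vehicle than in healthy mice, where 22.4% of all genes were called in either direction. The list median difference was 0.01. Vehicle mouse 17 stood apart by adipocyte markers (list mean 10.89, against 5.24 to 7.11 in the other 17 libraries) and FK506 mouse 12 by adrenal cortex markers (10.63). Fas lay between 6.63 and 6.85 in healthy and between 7.73 and 8.28 in MRL/lpr mice. A value per gene does not show where the reads lie, so it does not check the mutation.

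The 5 gene products of glucose synthesis are unequally abundant in the healthy cortex. Per kilobase of the longest coding transcript, Pck1 had 58193 ± 2450 normalised reads (SD, n = 3), Fbp1 46396 ± 344, G6pc 15038 ± 3190, Pcx 7010 ± 468 and Slc37a4 2836 ± 184. On the same scale the transporters were at 10982 ± 150 for Slc5a2, 1394 ± 27.3 for Slc2a2 and 829 ± 22.6 for Slc2a1. Pck1 and Fbp1 therefore led, and Slc2a1 was the least abundant of the 8 genes in healthy cortex. On GRCm38.p6 the genes lie on 8 different chromosomes: Pcx at chr19:4510472-4621752, Pck1 at chr2:173153073-173159274, Fbp1 at chr13:62864753-62888298, G6pc at chr11:101367716-101377903, Slc37a4 at chr9:44396946-44402966, Slc2a2 at chr3:28697903-28728361, Slc5a2 at chr7:128265683-128272430 and Slc2a1 at chr4:119108745-119137330. Annotated genes overlap Pcx (Lrfn4), Slc2a2, Slc5a2 and Slc2a1. The sources used here do not state whether counting used strand, so part of the reads of these 4 genes could belong to a neighbour.

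The promoters of Pck1 and G6pc, the members that moved most, are printed beside that of Slc2a1, which stood apart from them. Each is the 250 bases before the RefSeq start on GRCm38.p6, plus strand, 5′ to 3′: chr2:173152823-173153072, chr11:101367466-101367715 and chr4:119108495-119108744. Capitals mark motifs searched on both strands.
Pck1: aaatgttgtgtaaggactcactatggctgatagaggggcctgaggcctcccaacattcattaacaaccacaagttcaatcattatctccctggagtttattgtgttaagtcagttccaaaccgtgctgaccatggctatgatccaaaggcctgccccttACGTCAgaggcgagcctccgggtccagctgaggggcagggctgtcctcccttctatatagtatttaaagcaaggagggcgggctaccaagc
G6pc: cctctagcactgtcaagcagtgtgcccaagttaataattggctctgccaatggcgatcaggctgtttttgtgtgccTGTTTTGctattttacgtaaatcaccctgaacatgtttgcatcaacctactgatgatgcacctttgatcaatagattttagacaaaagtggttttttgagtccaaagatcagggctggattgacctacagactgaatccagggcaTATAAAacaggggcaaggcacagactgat
Slc2a1: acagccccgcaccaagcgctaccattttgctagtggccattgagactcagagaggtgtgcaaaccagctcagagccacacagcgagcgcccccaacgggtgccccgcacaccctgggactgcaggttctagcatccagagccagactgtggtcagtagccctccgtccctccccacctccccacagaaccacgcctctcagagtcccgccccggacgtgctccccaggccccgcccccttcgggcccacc
The Pck1 window held ACGTCA, the core of a cAMP response element, at -91 to -86. The G6pc window held CAAAACA, the core of an insulin response sequence, on the minus strand at -174 to -168, and a TATAAA box at -29 to -24. Slc2a1 held none of the 4 motifs, and none of the 3 windows held TGTTCT, a glucocorticoid receptor half-site. Matched motifs did not overlap each other. Among 32851 promoters of the same length, 6.47% held ACGTCA, 5.56% CAAAACA, 12.4% TATAAA and 16.1% TGTTCT. The table held 10 promoters of 7 members and no entry for Slc5a2. ACGTCA occurred in those of Pck1 and Slc37a4, and TATAAA in those of G6pc and Slc37a4. A match describes the letters and is no evidence of binding.

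**Figure D1:**
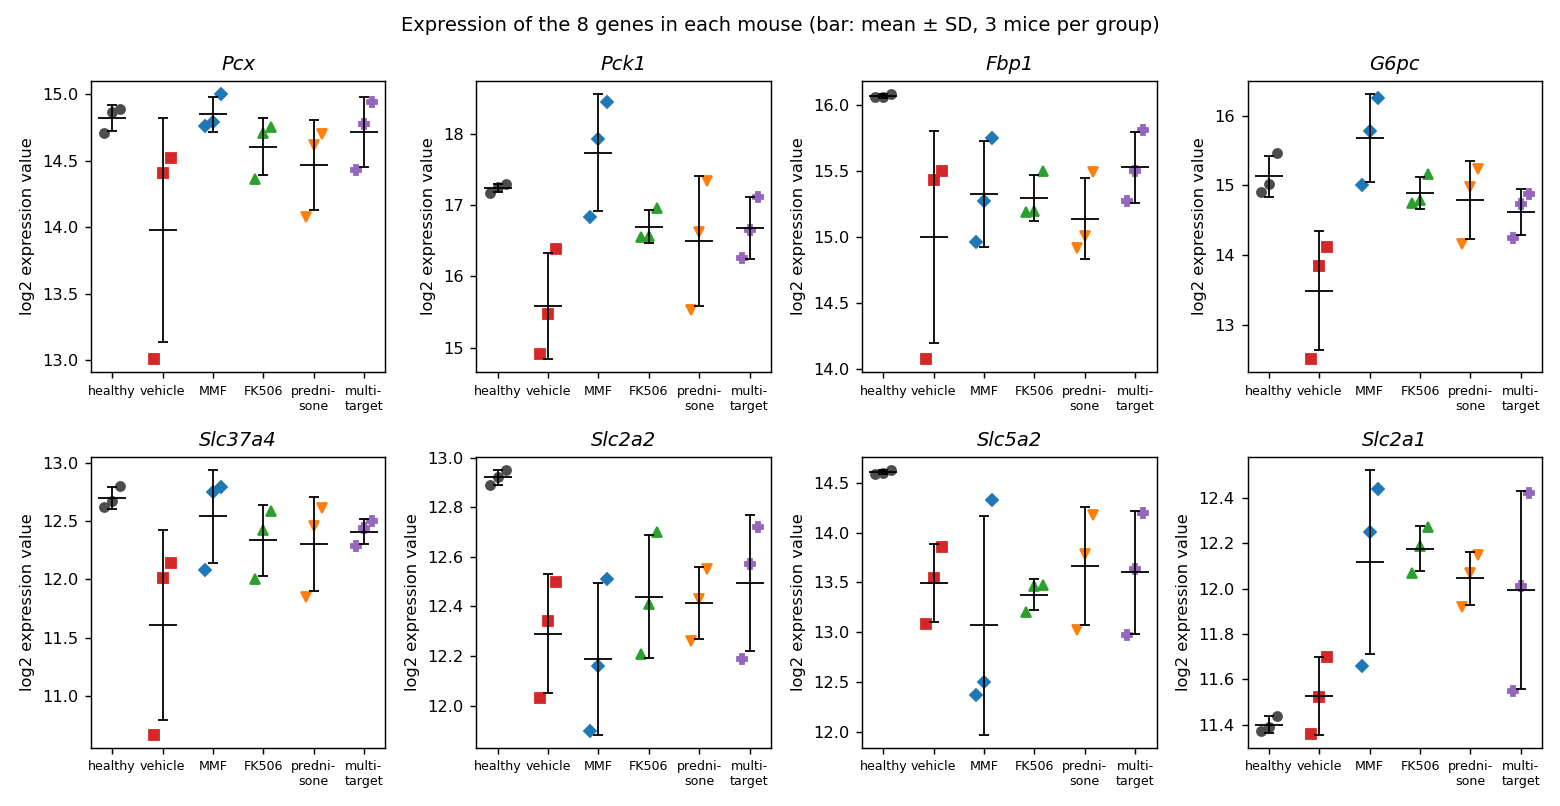
Deposited log2 expression value (y axis) of each of the 8 genes in each mouse, by group (x axis); points are mice and black bars are the mean ± SD of 3 mice. Vehicle mice lie below healthy mice for 7 genes, and for Slc2a1 the vehicle and healthy mice overlap.

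Disease was examined by comparing vehicle-treated MRL/lpr mice with healthy mice. Glucose-making genes were lower: Pck1 (3.14-fold), G6pc (3.11-fold), Slc37a4 and Fbp1 fell, together with the export transporter Slc2a2. These were 5 of the 8 genes, all in the same direction, where limma called 22.4% of all genes at an adjusted p of 0.05. Of all 15035 genes, 1016 were called lower and 2353 higher. In 7 of the 8 genes every vehicle mouse was below every healthy mouse, a pattern seen in 19.8% of all genes. The median difference was -1.08 over the 8 genes and 0.09 over all genes.

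G6pc, which releases free glucose, was at 14.91, 15.46 and 15.02 in the healthy mice. It was at 13.84, 14.12 and 12.51 in vehicle mice 7, 17 and 36. All vehicle values lay below all healthy ones, and mouse 36 lay more than 1 unit below the other 2. The difference was -1.63 ± 0.40 (SE, n = 3 per group; limma adjusted p = 0.0105). Pck1, the enzyme that commits oxaloacetate to glucose, was at 17.26, 17.29 and 17.17 in healthy mice and at 15.47, 16.38 and 14.91 in vehicle mice. Its healthy values were within 0.2 of each other while the vehicle values were spread over more than 1 unit. The difference was -1.65 ± 0.47 (limma adjusted p = 0.0224).

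Fbp1 was at 16.06, 16.08 and 16.06 in healthy mice and at 15.50, 15.43 and 14.08 in vehicle mice 7, 17 and 36. It fell by 1.06 ± 0.31 (SE, limma adjusted p = 0.0263). Slc37a4 was at 12.67, 12.80 and 12.62 in healthy and 12.14, 12.01 and 10.67 in vehicle mice, and it fell by 1.09 ± 0.32 (limma adjusted p = 0.0252). In both genes vehicle mice 7 and 17 were close together and mouse 36 was far below them. Pcx, at the entry of the pathway, showed the same order of mice but missed the threshold. It was at 14.87, 14.89 and 14.71 in healthy mice and at 14.52, 14.41 and 13.01 in vehicle mice, a difference of -0.84 ± 0.31 (limma adjusted p = 0.0591).

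Of the transporters, Slc2a2 was at 12.95, 12.89 and 12.92 in healthy and 12.34, 12.50 and 12.03 in vehicle mice. It fell by 0.63 ± 0.18 (SE, limma adjusted p = 0.0207), with vehicle mouse 36 nearer to the others than in the enzymes. The reabsorbing transporter Slc5a2 was at 14.59, 14.63 and 14.60 against 13.54, 13.86 and 13.08. Its groups did not overlap, yet the difference of -1.12 ± 0.44 missed the threshold (limma adjusted p = 0.079). Slc2a1 was at 11.44, 11.37 and 11.39 in healthy and 11.70, 11.52 and 11.36 in vehicle mice. These groups overlapped, with a difference of 0.13 ± 0.20 (95% interval -0.30 to 0.56, limma adjusted p = 0.677).

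The disease calls rested on few mice. Without vehicle mouse 36 none of the 8 genes passed, although 5 differences kept their sign: G6pc stood at -1.15 (limma adjusted p = 0.0561), Pck1 at -1.31 (0.117), Slc37a4 at -0.62 (0.121), Fbp1 at -0.60 (0.115) and Slc2a2 at -0.50 (0.111). In that fit 9.91% of all genes were called, against 22.4% with all mice, and 5 of the 8 genes passed unadjusted. Without healthy mouse 1, 2 or 3 only G6pc passed, with 11.6%, 12.1% and 12.4% of all genes called. Calls were thus lost across the whole table and not in these genes alone. Over all alternatives the adjusted p ranged from 0.002 to 0.173 for G6pc, 0.00543 to 0.22 for Pck1, 0.00229 to 0.835 for Slc37a4, 0.00329 to 0.811 for Fbp1 and 0.00269 to 0.251 for Slc2a2. The lowest value of each range came from the fit that weighted the libraries (array weights). The estimate of these weights did not converge, so that end of each range carries little.

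Markers of the proximal tubule, which makes these transcripts, moved with them. All 20 markers measured were below the healthy level. Of all 15035 genes 22.4% were called (1016 lower, 2353 higher), and of the 20 markers 7 fell. Their median difference was -0.97, close to the -1.08 of the 8 genes. In bulk tissue fewer cells of a type and less RNA per cell cannot be told apart. Relative to the mean of these markers in each library 75.8% of all genes were called (78.5% with Kap left out of the mean). Of the 8 genes only Slc2a1 was called on this scale, upward (1.13 ± 0.42 SE, limma adjusted p = 0.0234; 1.06 without Kap), and none of the 5 that fell as deposited. There G6pc differed by -0.63 (limma adjusted p = 0.173), Pck1 by -0.65 (0.22), Fbp1 by -0.05 (0.811) and Slc37a4 by -0.09 (0.835), while Slc2a2 was at 0.37 (0.232). The differences of Fbp1 and Slc37a4 were thus about as large as that of the markers, and those of G6pc and Pck1 were larger in size. Immune markers rose in 9 of 11 measured and tubular injury markers in 5 of 12, with list medians of 2.05 and 1.75. Vehicle mouse 36, on which the calls depended, had the highest injury list mean of all mice (13.13, against 10.48 and 10.5 in vehicle mice 7 and 17) and the lowest tubule marker mean. Their part in the fall of the glucose genes was not tested.

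**Figure D2:**
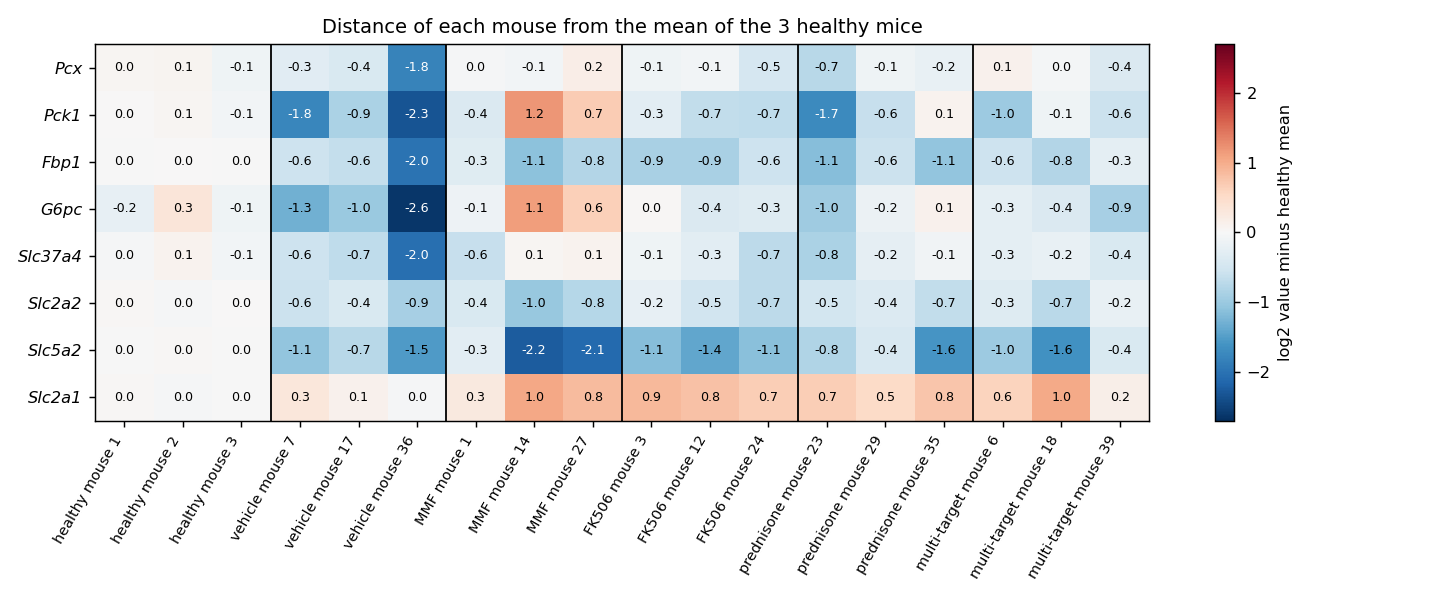
Log2 value of each gene (rows) in each mouse (columns) minus the mean of the 3 healthy mice; blue is lower and red higher than healthy. Vehicle mouse 36 is the lowest of all mice in Pcx, Pck1, Fbp1, G6pc and Slc37a4, MMF mice 14 and 27 are above healthy in Pck1 and G6pc and about 2 units below it in Slc5a2, and Slc2a1 is above the healthy mean in all 12 drug-treated mice.

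The wider pathway was described through lists of related genes. Of 24 measured enzymes and carriers that supply gluconeogenesis, 4 fell and 1 rose, about the share of 22.4% called over all genes. The list median was -0.40. Those that fell were Gpd1, the glycerol 3-phosphate dehydrogenase (-0.90 ± 0.29), the mitochondrial carriers Slc25a10 (-0.62 ± 0.17) and Slc25a11 (-0.54 ± 0.15), and the lactate and short-chain fatty acid transporter Slc5a8 (-1.03 ± 0.33). The 1 that rose was Pck2, the mitochondrial form of phosphoenolpyruvate carboxykinase (0.57 ± 0.18, limma adjusted p = 0.0336). Pck1 and Pck2 thus changed in opposite directions in the same mice.

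Of 6 fructose genes measured, 2 fell and 1 rose, where 22.4% of all genes were called. Sord, which makes fructose from sorbitol (-1.25 ± 0.33), and the ketohexokinase Khk (-0.94 ± 0.29) fell, while the aldose reductase Akr1b3, which makes sorbitol from glucose, rose (0.99 ± 0.29, limma adjusted p = 0.0267). Of 13 other hexose transporters, Slc2a6, a lysosomal transporter of macrophages (1.81 ± 0.32), and Slc50a1 (0.54 ± 0.18) rose and Slc2a12 fell (-0.79 ± 0.23). Hexokinase Hk2, which traps glucose in the cell, was 1 of 12 hypoxia-list genes to pass upward (2.12 ± 0.39, limma adjusted p = 0.00184), and Pgk1 passed downward (-0.68 ± 0.20). Of 23 regulators of gluconeogenic genes, Cebpb rose (1.97 ± 0.46), and the glucocorticoid receptor Nr3c1 (-0.49 ± 0.14) and the bile acid receptor Nr1h4 (-0.69 ± 0.22) fell. In the transporter, hypoxia and regulator lists the share called was near or below the 22.4% of all genes.

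Each drug arm was then compared with the same 3 vehicle mice, to ask which genes differed under treatment. The 4 comparisons share these controls, so their values are not independent of each other. MMF was the arm with calls: G6pc (4.55-fold) and Pck1 (4.43-fold) rose, the other 6 genes did not pass, and 1.58% of all genes were called. Of all genes, 20 were called higher and 218 lower under MMF. FK506, prednisone and multi-target treatment gave no call among the 8 genes by limma, and 0% of all genes were called in each. At an unadjusted p of 0.05, the members passing were 5 of 8 for MMF (29.9% of all genes), 4 for FK506 (19.9%), 3 for prednisone (3.15%) and 5 for multi-target (15.6%). Immune markers lay below vehicle in 11 of 11 under MMF (2 called, median -1.37) and tubular injury markers in 12 of 12 (0 called by limma, 6 unadjusted, median -1.96). Their medians were -0.89 and -1.95 under FK506, -0.42 and -0.46 under prednisone, and -1.03 and -1.12 under multi-target treatment, and their part in the glucose genes was not tested.

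G6pc was at 15.00, 16.25 and 15.78 in MMF mice 1, 14 and 27, above every vehicle mouse and, in mice 14 and 27, above every healthy mouse. The difference from vehicle was 2.19 ± 0.40 (SE, 95% interval 1.34 to 3.04, limma adjusted p = 0.0429). No gene reached a smaller adjusted p in this comparison, but other genes share this value. It therefore does not place G6pc first among all genes. Pck1 was at 16.84, 18.44 and 17.93 in the same mice, and the difference was 2.15 ± 0.47 (limma adjusted p = 0.0459). MMF mouse 1 was the lowest of the 3 in both genes and lay below the healthy mice in Pck1. Against healthy mice neither MMF difference passed, with 0.55 (95% interval -0.30 to 1.40) for G6pc and 0.49 (-0.51 to 1.49) for Pck1.

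The other enzymes did not pass under MMF. Pcx was at 14.79, 14.76 and 15.00, above all vehicle mice, with a difference of 0.87 ± 0.31 (limma adjusted p = 0.0941). Slc37a4 was at 12.08, 12.75 and 12.79, and mouse 1 was below vehicle mouse 7 (difference 0.94 ± 0.32, limma adjusted p = 0.0881). Fbp1 was at 15.75, 14.96 and 15.27, within or just above the vehicle range (0.32 ± 0.31, limma adjusted p = 0.49). In Fbp1 the order of the mice was the opposite of that in G6pc and Pck1, with mouse 1 highest and mouse 14 lowest.

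Slc5a2 and Slc2a2 under MMF showed that same inverse order. The first was at 14.33, 12.37 and 12.50 in MMF mice 1, 14 and 27, and the other was at 12.51, 11.90 and 12.16. Mice 14 and 27 had less of both than any vehicle mouse except for Slc2a2 in mouse 27, which lay within the vehicle range. Against vehicle the differences were -0.43 ± 0.44 for Slc5a2 (limma adjusted p = 0.518) and -0.10 ± 0.18 for Slc2a2 (0.718). Slc2a1 was at 11.66, 12.44 and 12.25, highest in the mice that were low in Slc5a2 (0.59 ± 0.20, limma adjusted p = 0.0892).

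The MMF calls depended on single mice as well. The number of members called was 0 when mouse 17 or 36 of the vehicle group, or mouse 14 or 27 of the MMF group, was left out, and limma then called 0 genes of the whole table, with 3 to 5 members passing unadjusted. Leaving out mouse 7 of the vehicle group gave 4 calls, with 12.9% of all genes called, and leaving out MMF mouse 1 gave 5, with 36.8%. The calls thus came and went across the whole table and not in these genes alone. Without vehicle mouse 36, G6pc was at 1.70 and Pck1 at 1.81 (limma adjusted p = 0.217 for both). Over all alternatives the difference stayed between 1.70 and 2.53 for G6pc (adjusted p 0.000644 to 0.385) and between 1.75 and 2.60 for Pck1 (0.00104 to 0.385). The sizes therefore moved less than the calls did. For both genes the lowest adjusted p came from the array weight fit, whose estimate did not converge.

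**Figure D3:**
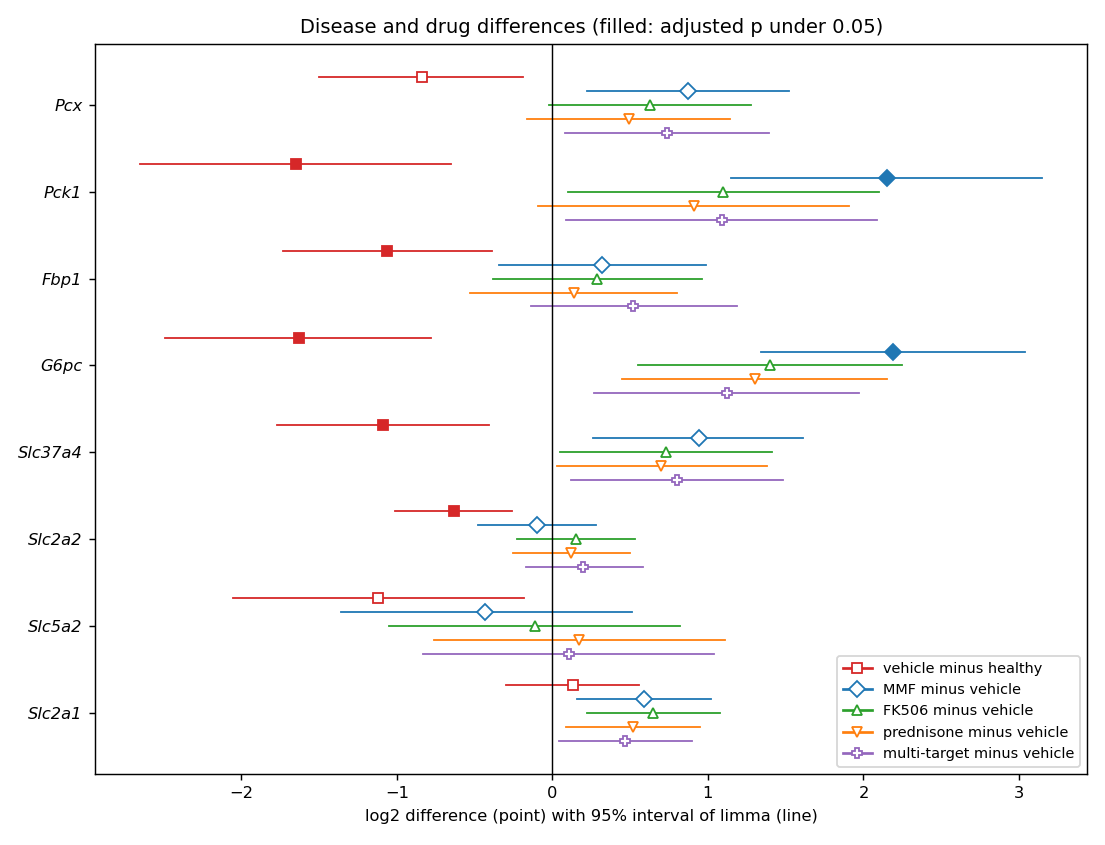
Log2 difference (x axis, point) with its 95% interval from limma (line) for each gene (y axis) in vehicle minus healthy and in each drug arm minus vehicle; filled points have an adjusted p under 0.05. The G6pc and Pck1 intervals lie below 0 for disease and above 0 for MMF, and those of Slc2a2 and Slc5a2 cross 0 in all 4 drug arms.

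Under FK506, G6pc was at 15.16, 14.74 and 14.79 in mice 3, 12 and 24 and Pck1 at 16.96, 16.57 and 16.55. Both were above every vehicle mouse, but the differences of 1.40 ± 0.40 and 1.10 ± 0.47 did not pass (limma adjusted p = 0.171 and 0.216). Slc37a4, with a group mean of 12.34 ± 0.30 (SD) and an overlap with vehicle mice, differed by 0.73 ± 0.32, and Pcx, at 14.71, 14.75 and 14.36, by 0.63 ± 0.31. Fbp1 (15.20, 15.19 and 15.50), Slc2a2 (12.70, 12.41 and 12.21) and Slc5a2 (13.46, 13.20 and 13.47) lay within 0.3 of the vehicle mean by group mean. Slc2a1, at 12.27, 12.19 and 12.07, was above every vehicle mouse, with the smallest SD of the 4 drug arms (0.10) and a difference of 0.65 ± 0.20 (limma adjusted p = 0.171).

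Under prednisone, G6pc was at 14.16, 14.97 and 15.24 in mice 23, 29 and 35, and mouse 23 was barely above vehicle mouse 17. Pck1 was at 15.53, 16.62 and 17.34, overlapping the vehicle mice. The differences were 1.30 ± 0.40 and 0.91 ± 0.47, and no gene passed in this arm (limma adjusted p = 0.943 for both). Mouse 23, with the highest injury list mean of its group (12.11, against 9.85 and 10.39), was also lowest in Pcx (14.08, against 14.70 and 14.62) and in Slc37a4 (11.85, against 12.46 and 12.61). Slc5a2 did not follow, at 13.79, 14.18 and 13.02, with mouse 35 the lowest. Fbp1 was at 14.92, 15.49 and 15.01, Slc2a2 at 12.43, 12.55 and 12.26, and Slc2a1 at 12.07, 11.92 and 12.15.

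Under the multi-target treatment, G6pc was at 14.87, 14.73 and 14.24 in mice 6, 18 and 39 and Slc37a4 at 12.44, 12.50 and 12.29, and both were above every vehicle mouse. The differences were 1.12 ± 0.40 for G6pc (limma adjusted p = 0.227) and 0.80 ± 0.32 for Slc37a4 (0.261). Pck1 was at 16.26, 17.12 and 16.65 (1.09 ± 0.47, limma adjusted p = 0.288). Pcx was at 14.94, 14.78 and 14.43, Fbp1 at 15.50, 15.27 and 15.81 and Slc2a2 at 12.57, 12.19 and 12.72. Slc5a2 was at 13.63, 12.97 and 14.20 and Slc2a1 at 12.01, 12.42 and 11.55, so that mouse 18 was lowest in the first and highest in the second, as MMF mouse 14 was in its group.

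Counted without a test, 3 of the 8 genes had every MMF mouse above every vehicle mouse (5.35% of all genes), 3 under FK506 (9.84%), 2 under prednisone (5.41%) and 2 under multi-target treatment (7.55%). G6pc was in all 4 counts. It was the 1 member in which all 12 drug-treated mice exceeded all 3 vehicle mice, which held for 83 genes, 0.552% of all. The order of the G6pc group means was MMF (15.68 ± 0.63, SD), healthy (15.13 ± 0.29), FK506 (14.90 ± 0.23), prednisone (14.79 ± 0.56), multi-target (14.61 ± 0.33) and vehicle (13.49 ± 0.86). Neighbours in this order overlapped, except multi-target and vehicle mice. For Pck1 the order was MMF (17.73 ± 0.82), healthy (17.24 ± 0.06), FK506 (16.69 ± 0.23), multi-target (16.68 ± 0.43), prednisone (16.50 ± 0.91) and vehicle (15.59 ± 0.74), and only healthy and FK506 mice were neighbours without overlap.

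The transporters were ordered otherwise. Slc5a2 ran from healthy (14.61 ± 0.02, SD) to prednisone (13.66 ± 0.59), multi-target (13.60 ± 0.61), vehicle (13.49 ± 0.39), FK506 (13.38 ± 0.16) and MMF (13.07 ± 1.10), and only its first step, from healthy to prednisone, was free of overlap. Slc2a1 ran from FK506 (12.17 ± 0.10) to MMF (12.12 ± 0.41), prednisone (12.05 ± 0.12), multi-target (11.99 ± 0.44), vehicle (11.53 ± 0.17) and healthy (11.40 ± 0.04), and all its neighbours overlapped. Vehicle mice thus held the lowest mean in G6pc and Pck1 but a middle place in Slc5a2 and the second lowest in Slc2a1.

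Direct tests between the drugs gave no difference. In the 6 pairs of drug arms 0% of all genes were called by limma, and no member was. Unadjusted, 1 of 8 members passed for FK506 against MMF (5.65% of all genes), 2 for prednisone against MMF (13.7%), 2 for multi-target against MMF (7.49%) and 0 in the other 3 pairs. For Pck1 the difference was -1.24 (95% interval -2.24 to -0.24) for prednisone minus MMF, -1.06 (-2.06 to -0.06) for multi-target minus MMF and -1.04 (-2.04 to -0.04) for FK506 minus MMF. For G6pc it was -1.07 (-1.92 to -0.21), -0.89 (-1.74 to -0.04) and -0.78 (-1.63 to 0.07) for multi-target, prednisone and FK506 minus MMF. Adjusted p was between 0.283 and 0.867 in these 6 tests, so a higher level under MMF than under another drug was not shown, and the intervals do not show that the drugs act alike.

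The treated groups were also set against healthy mice, to see what distance was left. Slc2a1, which did not pass in vehicle mice, was higher than healthy under MMF (0.72 ± 0.20 SE, limma adjusted p = 0.0307), FK506 (0.77 ± 0.20, 0.0341) and prednisone (0.65 ± 0.20, 0.0408). Under multi-target treatment it missed (0.59 ± 0.20, limma adjusted p = 0.0866). Every one of the 12 drug-treated mice was above every healthy mouse in Slc2a1, as in 14.9% of all genes. These comparisons share the healthy mice. The calls ended without any 1 healthy mouse, and also without MMF mouse 14 or 27, FK506 mouse 3 or 12, or prednisone mouse 23 or 35 in the arm of that mouse. The adjusted p ranged over the alternatives from 1.81e-05 to 0.143 for MMF, 3.77e-06 to 0.138 for FK506 and 0.0012 to 0.139 for prednisone. In each arm the lowest value came from the array weight fit, whose estimate did not converge. With each library centred on its median gene the difference fell to 0.66 for FK506 and 0.45 for prednisone (limma adjusted p = 0.0661 and 0.139). The median gene itself differed from healthy by 0.13 under prednisone.

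The luminal and export transporters were below healthy in all MRL/lpr groups. Slc2a2 (-0.73 ± 0.18, limma adjusted p = 0.0176) and Slc5a2 (-1.54 ± 0.44, limma adjusted p = 0.0319) were lower under MMF than in healthy mice. With Slc2a1 this made 3 of the 8 genes called for MMF against healthy (15.9% of all genes), 1 for FK506 (7.27%), 1 for prednisone (16.7%) and 0 for multi-target by limma (6.98%). Unadjusted, 3 of the 8 passed for multi-target, where 24.9% of all genes did. Slc2a2, Slc5a2 and Fbp1 were the 3 members in which all 15 MRL/lpr mice, treated or not, were below all 3 healthy mice, a pattern of 6.66% of all genes. Slc5a2 under MMF was at -2.17 without mouse 1 (limma adjusted p = 0.000845), and at -1.19 (0.146) and -1.26 (0.117) without mouse 14 or 27. The call also ended without any 1 healthy mouse, and the adjusted p ranged from 9.36e-06 to 0.146 over the alternatives. For Slc2a2 under MMF it ranged from 2.23e-05 to 0.662, with the call lost without any 1 healthy mouse, MMF mouse 14 or MMF mouse 27. For both transporters the lowest adjusted p came from the array weight fit, whose estimate did not converge.

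Related genes gave few calls in the drug arms. Of the 24 supply genes none was called under any drug by limma. Unadjusted, 11 of 24 passed under MMF, 10 under FK506, 0 under prednisone and 7 under multi-target treatment, against the all-gene shares of 29.9%, 19.9%, 3.15% and 15.6%. Among those with the smallest p under MMF were the pyruvate dehydrogenase kinase Pdk2 (0.89 ± 0.23, limma adjusted p = 0.0535), the mitochondrial pyruvate carrier subunit Mpc1 (0.61 ± 0.19, 0.0708) and the glutamine transporter Slc38a3 (1.15 ± 0.39, 0.0852). Of the 23 regulators 1 rose under MMF, and 12 passed unadjusted. Of the others, none of which was called, Nr1h4 was at 0.86 ± 0.22 (limma adjusted p = 0.0524), Ppara at 1.38 ± 0.39 (0.0621) and the acetyltransferase Kat2a at -0.69 ± 0.20 (0.064). The markers of the proximal tubule were not called in any drug arm; under MMF 4 of 20 passed unadjusted and their median was 0.30, against 0.73 for the 8 genes.

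Glucocorticoids induce Pck1 and G6pc, and prednisone is a glucocorticoid, so 14 known glucocorticoid receptor targets were set beside them. None was called by limma in any arm against vehicle, where 1.58% of all genes were called for MMF and 0% for the other drugs. Their median difference was 0.84 under MMF (6 of 14 unadjusted), 0.37 under FK506 (0), 0.34 under prednisone (2) and 0.18 under multi-target treatment (0). The unadjusted shares over all genes were 29.9%, 19.9%, 3.15% and 15.6%. Above vehicle by estimate were 12, 12, 14 and 11 of the 14. Against healthy mice 4 of 14 were called under MMF (15.9% of all genes) and 3 under prednisone (16.7%), all higher. These shares hold both directions, and 1437 of 15035 genes were called higher under MMF and 2014 under prednisone. Limma called none against healthy under FK506 (7.27%) or multi-target treatment (6.98%). Fkbp5, a co-chaperone of the receptor, was at 13.27, 14.72 and 14.06 in MMF mice 1, 14 and 27 and at 13.50, 13.58 and 14.45 in prednisone mice 23, 29 and 35. In vehicle mice 7, 17 and 36 it was at 13.34, 12.62 and 12.07. The differences of Fkbp5 were 1.34 ± 0.48 for MMF (limma adjusted p = 0.0966) and 1.16 for prednisone (0.943), and those of Tsc22d3 (GILZ) were 0.26 and 0.40. The list mean was 12.30 over the MMF mice and 12.04 over the prednisone mice, a difference that was not tested.

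Within the groups, Pck1 and the mean of the glucocorticoid targets also differed from mouse to mouse. The mean of the 14 targets was 11.33, 13.17 and 12.40 in MMF mice 1, 14 and 27, 11.95, 11.59 and 12.58 in prednisone mice 23, 29 and 35, and 11.43 to 11.54 in vehicle mice. In each of the 6 groups the mouse with the highest mean of the targets was also the one with the highest Pck1, and in 5 groups also the one with the highest G6pc. Slc37a4 and Slc2a1 shared this mouse in 4 groups each, Slc2a2 and Slc5a2 in 2 each, and Pcx and Fbp1 in 1 each. The enzymes were thus not alike in this. Slc5a2 was lowest in the mouse highest in Pck1 in 3 groups (MMF, prednisone and multi-target) and Slc2a2 in 4. For Fbp1 this held in 2 groups, for Pcx and Slc2a1 in 1 each, and for G6pc and Slc37a4 in 0. These counts were made after the values had been seen and carry no test. The share of all genes with the same pattern was not counted. Some ranks were close, as for Pck1 in healthy mice 2 and 1 (17.29 and 17.26) and the target mean in vehicle mice.

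**Figure D4:**
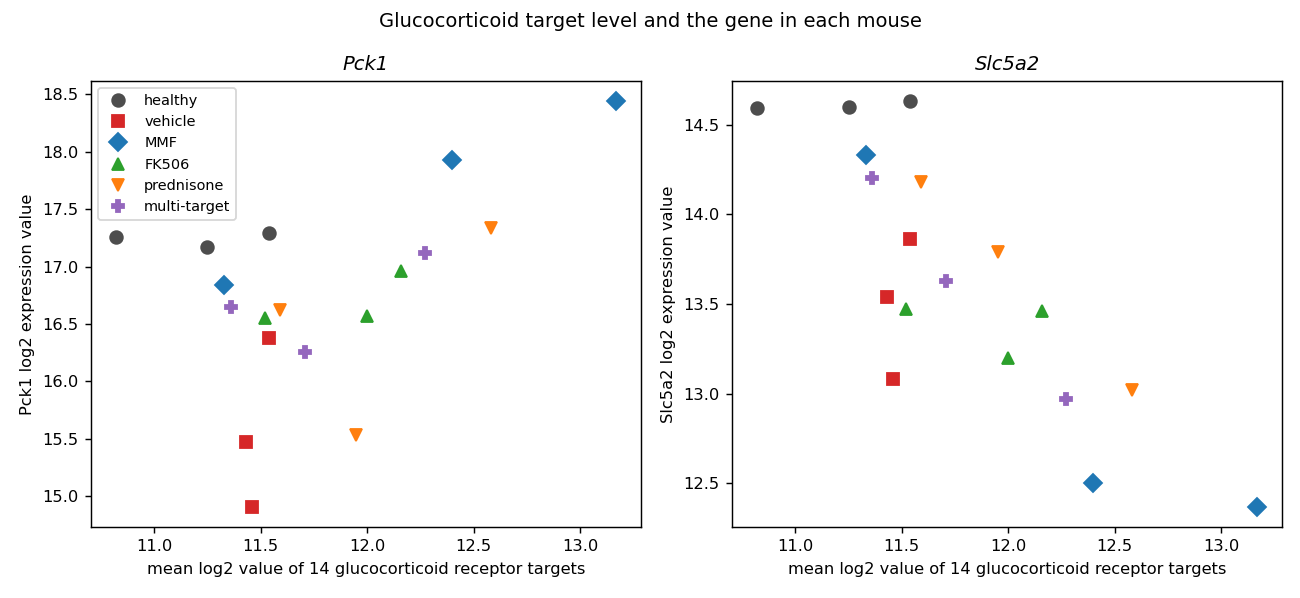
Log2 value of Pck1 (left, y axis) and Slc5a2 (right, y axis) against the mean log2 value of 14 glucocorticoid receptor targets (x axis); each point is 1 of the 18 mice, and symbols give the group. MMF mouse 14 is farthest to the right at 13.17, with the highest Pck1 (18.44) and the lowest Slc5a2 (12.37) of all mice.

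How the 8 genes varied together was described by Pearson r over the 18 libraries, which share the group differences. Pck1 and G6pc had r = 0.92 (0.82 for deviations from the group means), G6pc and Slc37a4 0.88 (0.90), and Pcx and Slc37a4 0.93 (0.90). Slc2a2 and Slc5a2 had 0.89 (0.82), and Fbp1 was nearer to them (0.78 with Slc2a2 and 0.73 with Slc5a2) than to Pck1 (0.36) or G6pc (0.40). Fbp1 had 0.69 (0.67) with Pcx and 0.61 (0.47) with Slc37a4, and within groups it was about as close to Pcx as to Slc2a2 (0.66) and Slc5a2 (0.68). With Pck1 and G6pc it had 0.08 and 0.31 within groups. Slc5a2 and Slc2a1 ran against each other, at -0.75 over all libraries and -0.79 within groups.

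The genes most like each member were then listed, up to 3 for each. For Pcx they were Gcdh (r = 0.96), Sirt3 (0.95) and Gcat (0.95), which encode mitochondrial proteins, and for Fbp1 the complex I subunit Ndufa9 (0.98), the isocitrate dehydrogenase subunit Idh3g (0.98) and Sqrdl (0.97). Slc37a4 was close to Aldh6a1 (0.96) and Gne (0.96). G6pc was most like Abcc12, Tmem59 and the transcription factor Hnf4a (0.92 each). Slc5a2 was most like the proximal tubule gene Acsm2 (0.97), Kcnip1 (0.96) and Pdss2 (0.96). Slc2a2 was nearest to Gtf2h2 (0.92), Galnt3 (0.90) and Pira6 (0.90), and Slc2a1 to Imp3 (0.95), Sptb (0.95) and Sim2 (0.94).

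Pck1 was most like Kdm5d (0.98), Vmn2r57 (0.98) and L3mbtl4 (0.97), genes of low counts. Kdm5d had 180 to 613 reads per library, Vmn2r57 91 to 736 and L3mbtl4 99 to 495. Kdm5d lies on the Y chromosome and has an X-linked relative, while Xist, expressed from the inactive X, lay between 12.62 and 13.99 in all 18 libraries. How reads of related genes were assigned is not stated, so the identity of these reads is uncertain.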

How the data were processed

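RNA from frozen kidney cortex was sequenced on Illumina libraries, per the labels' protocols. The authors deposited log2 expression, 1 value for each gene symbol. Limma and mm10 are named in the submitters' processing notes, without version; neither aligner nor annotation was given in the sources used here. Raised to a power of 2, they were whole reads times 1 factor per library for 6 of the 8 genes. The factor was chosen at a tolerance of 0.001 reads, and the 8 genes were judged at a wider tolerance. Pcx and Slc37a4 were not whole. In 23 rows a date had replaced the symbol. Library sums ran from 28939845 to 41066953 reads.

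The log2 values were fitted as deposited, without filter or pseudocount, with limma 3.58.1 in R 4.3.3: group means over 18 libraries, 12 residual degrees of freedom, a mean-dependent prior variance, 15 pairwise comparisons, and Benjamini-Hochberg adjustment over 15035 genes at 0.05. With 3 mice per group not stated to be from separate cages or batches, p-values measure the spread between these mice. Mouse numbers pair no samples.

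The members and gene lists were chosen with earlier results of these data known. Named genes were all members, from each list up to 4 with the smallest p for disease and for MMF and any passing in a drug arm, the 3 most similar to each member, and Fkbp5 and Tsc22d3. Outside this rule, after seeing values, came Alb, Cps1, Fas and Xist. Results on some further selected genes are not reported here. Sequences and positions are RefSeq and GENCODE on GRCm38.p6. Alternatives changed the samples fitted, scaling, filter, prior, weights, pseudocount (10) and the mice left out.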

Additional observations from a re-analysis of the deposited data

How the results depend on the processing

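The number of the 8 genes called was recomputed under 10 kinds of change, and each log2 difference called was followed too. For disease (5 called), it was 1 relative to the proximal tubule marker mean (75.8% of all genes) and 1 (78.5%) with Kap left out of that mean, a choice made after seeing the data. Leaving out single mice gave 0 to 6, with 9.91% to 26.8% of all genes called. For MMF against vehicle (2 called), it was 0 with only the 2 groups fitted, 0 under quantile normalization, 0 with median-centred libraries, 0 without vehicle mouse 17 and FK506 mouse 12, 0 relative to the marker mean and 1 with Kap left out of it, 1 without the lowest 25% of genes, and 7 with array weights (44.9% of all genes called); leaving out single mice gave 0 to 5. Array weights also gave 2 for FK506 (15.5% of all genes) and 4 for multi-target (18.5%), where the count was otherwise 0; prednisone stayed at 0 under every alternative run. The array weight estimate stopped before it converged and gave multi-target mouse 6 a weight of 26.58, so its counts carry little. That fit also gave the lowest adjusted p of every range stated above. Its values are among the 105 below that kept their call. Of 192 recomputed differences of 12 called results, 105 stayed on their side of the threshold, 84 lost it with the same sign and 3 reversed: Slc2a2 in disease at 0.37 relative to the marker mean and 0.30 with Kap left out, and Slc2a2 under MMF against healthy at 0.16 relative to the marker mean. The cause was not tested. A mean that moves with the members, as the tubule marker mean does, also removes a change of its own cells. No paired analysis was run because mouse numbers pair no samples.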
